A study of Mus musculus with 8 samples.

Results

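Polycomb repressive complex 2 (PRC2) was followed at the level of its own transcripts when mouse embryonic stem (ES) cells were driven out of self-renewal by retinoic acid (RA). Its subunits were taken as every array probe that is not a control and that carries the name of 1 of 10 genes, which gave 16 of the 55681 probes. The genes are the 6 core subunits *Ezh1*, *Ezh2*, *Eed*, *Suz12*, *Rbbp4* and *Rbbp7* and the 4 accessory subunits *Jarid2*, *Mtf2*, *Phf1* and *Phf19*. The cells were of the feeder-free line E14Tg2A.4. Of 8 cultures, 4 were left untreated and 4 received 1 µM all-trans RA for 72 h (3 days) in medium from which leukemia inhibitory factor, the cytokine that sustains ES cells, had been left out. Addition of RA and loss of the cytokine therefore go together in this comparison and cannot be told apart. RNA of each culture was hybridized to 1 Agilent SurePrint G3 mouse expression array in a single colour (Cy3).

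PRC2 places methyl groups on lysine 27 of histone H3 (H3K27me3), a mark of silent developmental genes. A catalytic subunit, Ezh1 or Ezh2, works only in a complex with Eed and Suz12, and the histone chaperones Rbbp4 and Rbbp7 complete the core. Accessory subunits define variants of the complex: the Polycomb-like proteins Phf1, Mtf2 and Phf19 in PRC2.1, and Jarid2, with Aebp2, in PRC2.2. In ES cells the complex occupies CpG islands of lineage genes, and it is needed for orderly differentiation more than for self-renewal.

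After RA, 6 of the 10 subunit genes fell (*Jarid2*, *Mtf2*, *Phf19*, *Eed*, *Suz12* and *Ezh1*), 2 rose (*Rbbp7* and *Phf1*), and *Ezh2* and *Rbbp4* did not pass the test. The decreases ran from 6.04-fold for *Jarid2* to 1.74-fold for *Ezh1*. A gene is said to fall or rise where limma gave a Benjamini-Hochberg adjusted p below 0.05 over all probes and a change above 1.5-fold, with 4 arrays in each condition. Each gene is represented by its brightest probe. Values are log2 signals after subtraction of the 75th percentile of the same array, so that 0 is that percentile. By the same rule, 26.8% of the 18056 named genes that were well above background on all arrays fell and 19.4% rose. Among the probes, 8 of the 16 were lower and 4 were higher, where 21.6% and 12.9% of all 55681 probes were. The share of subunit genes that fell was thus above the background share, and the share that rose was close to it. In 8 of the 10 genes the 4 arrays of a condition lay beyond the 4 of the other, which was so for 55.9% of the 18056 genes.

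The scale on which these changes are read has a shift of its own. The median over all probes was -0.28 on the log2 scale with this scaling and 0 after quantile normalization, and over the 18056 named genes it was -0.20 and -0.04. Quantile normalization gave 6 subunits lower and 2 higher as well. Among all probes it moved the calls from 12044 lower and 7196 higher to 8704 lower and 8152 higher. Of the 16 probes, 13 were well above background on all 8 arrays, the representative probe of every gene among them, and no spot was saturated.

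**Figure D1:**
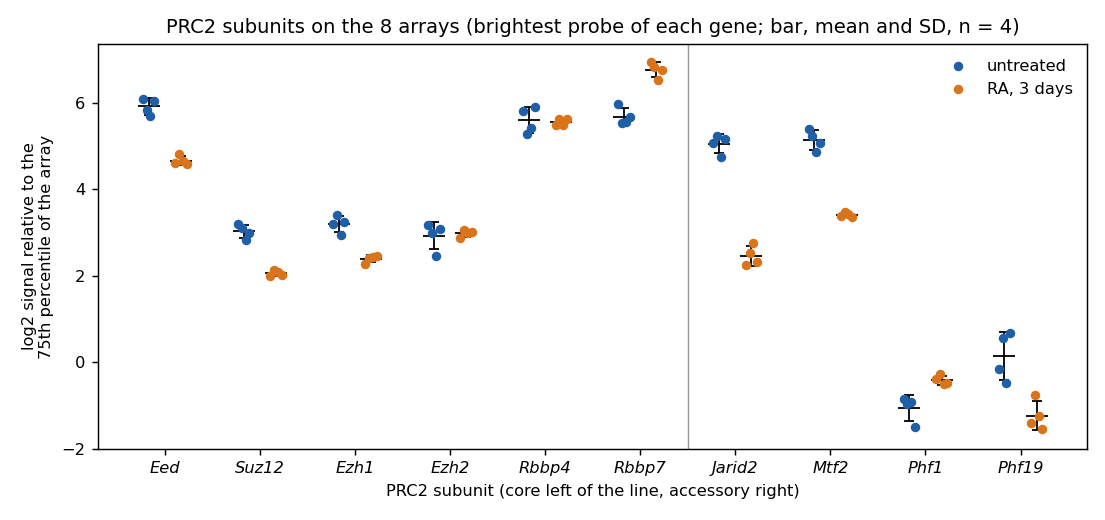
Log2 signal of the 10 PRC2 subunits relative to the 75th percentile of the array (vertical axis), by gene (horizontal axis), with a point for each of the 4 untreated (blue) and 4 RA-treated (orange) arrays and a bar for the mean and SD. The conditions are apart for 8 genes and overlap for Ezh2 and Rbbp4, and levels of different genes should not be compared, since they come from different probes.

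Among the core subunits, the non-catalytic partners *Eed* and *Suz12* fell in parallel. *Eed* encodes the WD40 protein that binds H3K27me3 and stimulates the enzyme. Its probe (NM_021876, chr7:97103264-97103323, minus strand; positions of probes are on mm9, as the scanner files give them) read 6.10, 5.84, 5.69 and 6.05 in untreated replicates 1 to 4 and 4.61, 4.81, 4.65 and 4.58 in RA-treated replicates 1 to 4. Every RA-treated array was below every untreated array by a wide margin. The change was -1.26 ± 0.15 on the log2 scale (SE, n = 4 per condition), which left 41.7% of the untreated signal (limma adjusted p = 0.000194).

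*Suz12*, the scaffold on which the core assembles, was measured by 1 probe (NM_199196, chr11:79847251-79847310, plus strand). It read 3.19, 3.11, 2.83 and 2.98 in untreated cells and 1.99, 2.13, 2.09 and 2.03 after RA. The conditions did not overlap, and the RA-treated arrays were tightly grouped (SD 0.06 against 0.16). The signal fell by 0.97 ± 0.14 on the log2 scale to 51.1% of the untreated level (limma adjusted p = 0.000579). A limma test against a change of 1.5-fold itself, which is stricter, gave an adjusted p of 0.0577.

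The catalytic subunits did not move together. *Ezh1* is the weaker methyltransferase and is known mainly from non-dividing cells. Its brightest probe (NM_007970, chr11:101052430-101052489, minus strand) read 3.20, 3.41, 2.95 and 3.24 in untreated cells and 2.28, 2.42, 2.44 and 2.46 after RA, without overlap. It fell by 0.80 ± 0.15 on the log2 scale to 57.4% (limma adjusted p = 0.00233). A neighbouring probe (chr11:101052680-101052739) gave the same change of -0.80 (limma adjusted p = 0.00373). With the median of each array in place of its 75th percentile the change was -0.52, below 1.5-fold, and the strict test gave an adjusted p of 0.316.

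*Ezh2*, the main methyltransferase of dividing cells, showed no change past the test. Its probe (NM_007971, chr6:47480307-47480366, minus strand) read 3.17, 2.99, 2.47 and 3.08 in untreated cells and 2.88, 3.06, 2.99 and 3.01 after RA. The RA-treated arrays lay inside the range of the untreated arrays, in which replicate 3 was low. The change was 0.06 on the log2 scale with a 95% interval from -0.35 to 0.46 (limma adjusted p = 0.806). The change was 0.20 after quantile normalization and 0.34 with scaling to the median (limma adjusted p = 0.297 and 0.267).

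The remaining probe of *Ezh1* gave the decrease only without 1 untreated array. It is shown because its letters spell part of the SET domain, the catalytic domain, so that it reads the coding part of the transcript, 2104 bases upstream of the brightest probe on the genome:
Ezh1 A_55_P2017086 (chr11:101054534-101054593, minus strand, mm9): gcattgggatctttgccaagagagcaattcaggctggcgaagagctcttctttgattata
This probe was dim: it read -6.03, -3.50, -3.46 and -3.19 in untreated cells and -4.39, -4.14, -4.23 and -4.06 after RA, and it was well above background on 3 of 4 untreated and 4 of 4 RA-treated arrays. Its change of -0.16 had a 95% interval from -1.45 to 1.13 (limma adjusted p = 0.83), which contains the change of the other probes. Untreated replicate 1, at -6.03, was the array on which it was not above background. Without that array the other 3 untreated arrays lay above all 4 RA-treated arrays, and the change was -0.82 ± 0.16 (limma adjusted p = 0.00522), close to that of the other probes. The array was left out after its value was seen, so this is no independent check of the other probes. With all 3 probes averaged the change of *Ezh1* was -0.59 (limma adjusted p = 0.0939), and -0.84 (limma adjusted p = 0.00386) without untreated replicate 1.

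The histone chaperones differed as well. *Rbbp7* (RbAp46) rose on both of its probes, which lie 4092 bases apart. Its brightest probe (NM_009031, chrX:159216593-159216652, plus strand) read 5.98, 5.53, 5.56 and 5.67 in untreated cells and 6.94, 6.84, 6.54 and 6.76 after RA. The conditions did not overlap, and the change was 1.08 ± 0.16 on the log2 scale, or 2.12-fold (limma adjusted p = 0.000783). The other probe is shown because its letters spell part of the WD40 repeats of the protein and it therefore reads the coding sequence, upstream of the first:
Rbbp7 A_55_P2080542 (chrX:159212501-159212560, plus strand, mm9): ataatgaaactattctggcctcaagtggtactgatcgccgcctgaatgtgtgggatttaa
It read 4.35, 4.20, 4.31 and 4.53 in untreated cells and 5.82, 5.43, 5.30 and 5.29 after RA. The increase of 1.11 ± 0.17 (limma adjusted p = 0.000792) differed from that of the brightest probe by less than the SE of either.

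For *Rbbp4* (RbAp48) the 2 probes disagreed. The brightest probe (NM_009030, chr4:128986934-128986993, minus strand) read 5.81, 5.29, 5.41 and 5.90 in untreated cells and 5.49, 5.62, 5.48 and 5.62 after RA. The conditions overlapped, and the change was -0.05 with a 95% interval from -0.44 to 0.34 (limma adjusted p = 0.819); after quantile normalization it was 0.21. The other probe, 2311 bases further downstream (chr4:128984623-128984682), read -0.07, 0.02, -0.99 and -0.17 in untreated cells and -1.71, -0.99, -1.44 and -1.84 after RA. This probe fell by 1.19 ± 0.27 on the log2 scale (limma adjusted p = 0.00818), with untreated replicate 3 and RA-treated replicate 2 at the same value. Both probes were well above background on all arrays, so *Rbbp4* is counted as not passing only because its brighter probe represents it. With both probes averaged it fell by 0.62 (limma adjusted p = 0.0317).

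**Figure D2:**
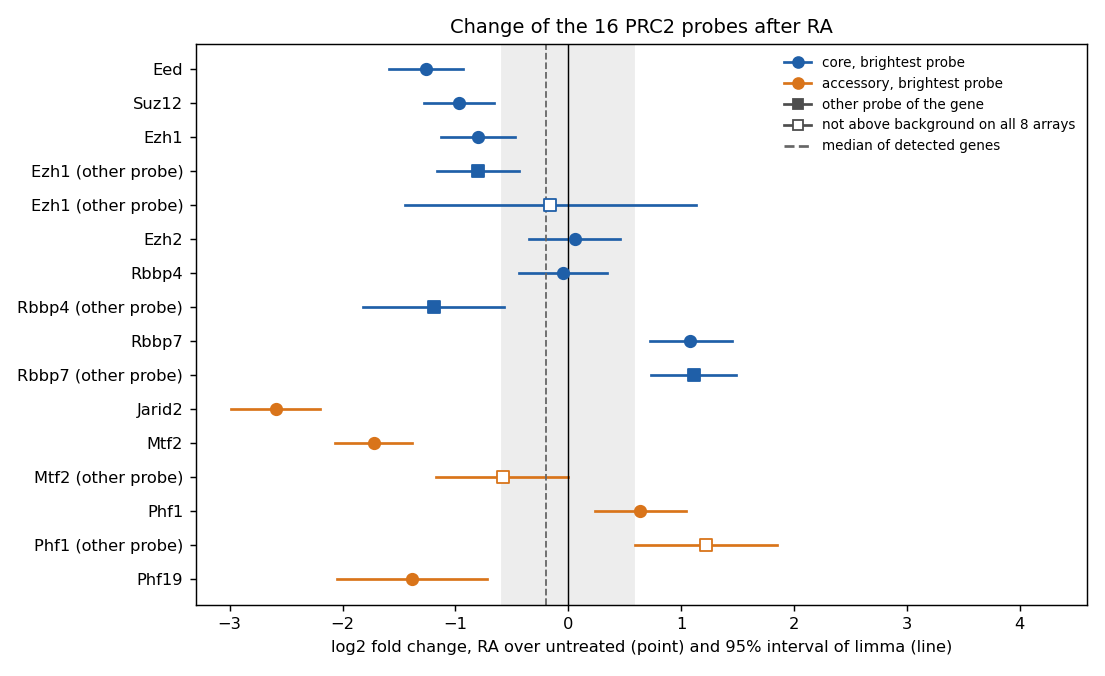
Log2 fold change of RA-treated over untreated cells (horizontal axis) for the 16 probes of the PRC2 subunits (vertical axis), with the 95% interval of limma. Circles are the probes that represent a gene, squares the other probes, open symbols probes not above background on all 8 arrays, and the grey band is a change below 1.5-fold; the dashed line is the median of the named genes, -0.20. The probes of Ezh1 at -0.80 and of Rbbp7 at 1.08 and 1.11 lie together, and those of Rbbp4 at -0.05 and -1.19 lie apart.

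The accessory subunits had a lower median than the core. Their median change was -1.55 (3 of 4 fell and 1 rose), and that of the core was -0.43 (3 of 6 fell and 1 rose), beside -0.20 for all named genes. After quantile normalization the medians were -1.44 and -0.24. These medians describe 4 and 6 genes and were not tested against each other. Other partners of PRC2, among them *Aebp2*, are kept in a separate list with a median of -0.47. The contrast therefore depends on which genes are listed as accessory.

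*Jarid2*, the defining subunit of PRC2.2, which helps to bring the complex to chromatin, had the largest change of the 10 genes. Its probe (NM_021878, chr13:45016247-45016306, plus strand) read 5.08, 5.24, 4.75 and 5.16 in untreated cells and 2.25, 2.53, 2.75 and 2.32 after RA. The conditions were further apart than for any other subunit. The change was -2.59 ± 0.17, which left 16.6% of the untreated signal (limma adjusted p = 1.2e-05), and 2.7% of the 18056 named genes fell by more.

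The 3 Polycomb-like genes, whose proteins bind H3K36me3 with a Tudor domain and unmethylated CpG-rich DNA, moved in different directions. *Mtf2* (Pcl2), the form best known from ES cells, was read by its brightest probe (NM_013827, chr5:108537924-108537983, plus strand) at 5.39, 5.23, 4.87 and 5.08 in untreated cells and at 3.38, 3.48, 3.44 and 3.36 after RA. There was no overlap, and the SD among RA-treated arrays was 0.05. It fell by 1.72 ± 0.15 on the log2 scale to 30.3% (limma adjusted p = 4.22e-05). Its other probe (chr5:108536045-108536104) was not well above background on any array and gives no fold.

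*Phf19* (Pcl3) was read by 1 probe (NM_028716, chr2:34749588-34749646, minus strand) at -0.16, 0.55, -0.47 and 0.67 in untreated cells and at -1.40, -0.76, -1.25 and -1.54 after RA. The untreated arrays spread more than for any other representative probe of the subunits (SD 0.55), and the conditions still did not overlap. The decrease was 1.38 ± 0.29 on the log2 scale to 38.3% (change of -1.38, limma adjusted p = 0.00545), and the strict test gave an adjusted p of 0.0649.

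*Phf1* (Pcl1) was the accessory subunit that rose. Its brightest probe (NM_009343, chr17:27074715-27074774, plus strand) read -0.86, -0.96, -0.92 and -1.49 in untreated cells and -0.39, -0.28, -0.51 and -0.49 after RA. There was no overlap, and untreated replicate 4 was the lowest of all. The change of 0.64 ± 0.17 (limma adjusted p = 0.0185) was a 1.56-fold increase, just past the threshold. It was 0.50, below 1.5-fold, without untreated replicate 4, and the adjusted p was 0.0504 without RA-treated replicate 1 and 0.0515 without RA-treated replicate 2. The other probe (chr17:27073236-27073295) was well above background on only 2 of 4 untreated and on 4 of 4 RA-treated arrays. Its change was 1.22 ± 0.28 (limma adjusted p = 0.00769), but 0.64 in the authors' values and 0.41, below 1.5-fold, with normexp background correction, so its size depends on the processing.

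Since the related subunits can take each other's place in the complex, the ratio of the 2 genes of a pair was followed within each array, where the scaling of the array cancels. The log2 ratio of *Ezh1* to *Ezh2* was 0.02, 0.42, 0.49 and 0.16 in untreated cells and -0.60, -0.64, -0.55 and -0.56 after RA. It shifted by -0.86 ± 0.11 (SE), away from *Ezh1*. The ratio of *Rbbp4* to *Rbbp7* shifted by -1.14 ± 0.14, that of *Mtf2* to *Phf1* by -2.37 ± 0.17 and that of *Phf1* to *Phf19* by 2.03 ± 0.42. In these 4 pairs the conditions did not overlap (exact permutation test, two-sided, p = 0.0286 each, the smallest that 8 arrays allow; adjusted over the 5 pairs, 0.0357). For *Mtf2* with *Phf1* and *Phf1* with *Phf19* this separation was given in advance. *Phf1* rose and the other gene fell, each without overlap, so these p-values add nothing to the single genes. With the arrays paired by replicate number, an exact sign-flip test gave p = 0.125 for each of the 4 pairs of genes. This is the smallest that 4 pairs of arrays allow, and so no call. *Mtf2* and *Phf19* fell by amounts that could not be separated, with a shift of -0.34 ± 0.31 (exact permutation test, p = 0.314). Such a ratio shows that the 2 genes changed unequally and not how many molecules of each the cells held. With the probes of a gene averaged, the shift of *Ezh1* against *Ezh2* was -0.65 (exact permutation test, adjusted p = 0.179), and -0.98 without untreated replicate 1. That array, on which the dim probe of *Ezh1* was not above background, was left out after its value was seen.

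**Figure D3:**
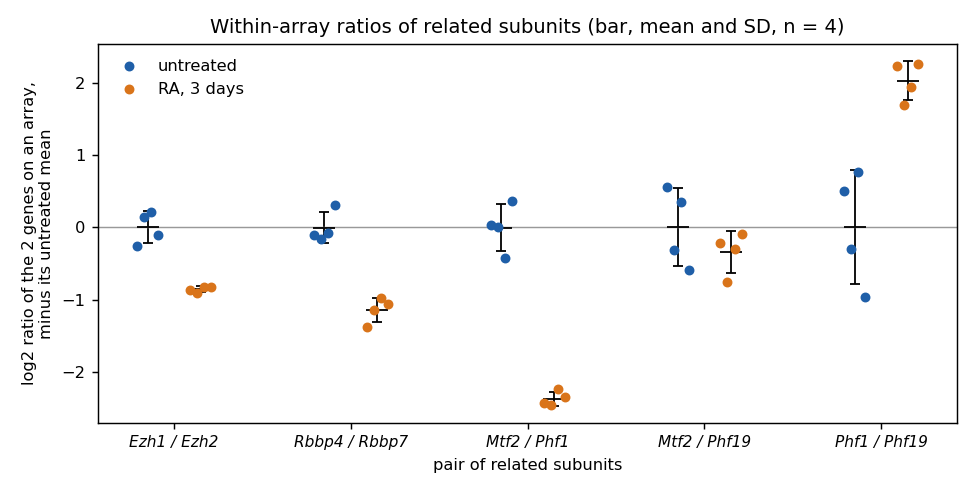
Log2 ratio of 2 related subunits on the same array, minus its mean over the untreated arrays (vertical axis), for 5 pairs (horizontal axis), with a point per array (blue, untreated; orange, RA-treated) and a bar for the mean and SD of 4 arrays. The conditions are apart for 4 pairs and overlap for Mtf2 and Phf19, whose shift was -0.34.

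Some arrays stood apart for many subunits. Untreated replicate 3 was the lowest untreated array for 7 of the 10 genes, also after quantile normalization, and RA-treated replicate 2 was the highest RA-treated array for 7 (6 after quantile normalization). The share of all genes with this order was not counted, and the order was not particular to the subunits. Mean levels of the replication genes described below were also lowest in untreated replicate 3 (3.32, against 3.62 to 3.95). They were highest in RA-treated replicate 2 (3.02, against 2.83 to 2.91). Not all lists had this order, and the fibroblast and smooth muscle markers were highest in untreated replicate 3. The ES cell markers (8 genes, among them *Pou5f1* and *Nanog*) had a mean level between 5.26 and 5.66 on the untreated arrays, and of 1.33, 2.38, 0.97 and 0.52 on RA-treated replicates 1 to 4, so replicate 2 was also the array that kept most of them. All 8 fell (median change -4.21), and the least changed of them was *Dppa5a*, at -2.18. The labelled cell type was borne out by these markers in the untreated arrays. All 8 genes of the RA response and all 7 primitive endoderm markers rose, as did 6 of 7 markers of fibroblasts and smooth muscle, whose mean level went from between -1.98 and -1.37 to between 2.70 and 4.02. Of 7 neural markers 1 rose (*Nes*) and 1 fell (*Tubb3*). Beside these counts, 26.8% of the named genes fell and 19.4% rose. In these bulk RNA samples, fewer cells of a type and less RNA per cell cannot be told apart, and the part of the change in cell types in the change of the subunits was not tested.

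*Ezh1* and *Ezh2* were also set beside the genes with the most similar course over the 8 arrays, out of the 12319 genes outside the lists that are symbols of the RefSeq table and were well above background on all of them. Likeness is the root mean square distance between the mean-centred log2 values. Closest to *Ezh1* were *Itpr1* at 0.05, *Scfd2* at 0.0625 and *Ccdc28a* at 0.0647, with changes of -0.78, -0.83 and -0.80. Nearest to *Ezh2* were *Hint1* at 0.0416, *Rpp21* at 0.0635 and *Oaz1* at 0.0728, whose changes of 0.06, -0.02 and -0.05 did not pass the test. These genes were picked on the same 8 values, so the likeness of their changes follows from the choice.

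Further partners of PRC2 also moved in both directions: of 7 genes, 3 fell, 1 rose and 3 did not pass, with a median of -0.47. Among the named genes 26.8% fell and 19.4% rose, and the counts were not tested against these shares. *Aebp2*, the partner of Jarid2 in PRC2.2, fell (-1.77 ± 0.18, limma adjusted p = 9.9e-05). *Epop*, an ES cell subunit of PRC2.1 (E130012A19Rik on the array), was at -0.84 and *Ezhip*, an inhibitor of the enzyme (AU022751 on the array), at -1.32, and both fell. The call of *Epop* was lost at -0.56 with scaling to the median and at -0.58 with quantile normalization without untreated replicate 3. *Lcor*, whose locus encodes the PRC2.1 subunit PALI1, rose by 1.34 ± 0.18 (limma adjusted p = 0.000494). Its relative *Lcorl* (0.36) and the elongins *Elob* (-0.47) and *Eloc* (0.57), which bind Epop, did not pass; *Eloc* did pass, at 0.77, after quantile normalization.

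Of the enzymes that act against H3K27me3, the demethylase gene *Kdm6b* rose (1.50 ± 0.27, limma adjusted p = 0.00238), and *Kdm6a* was at -0.49 and did not pass. The acetyltransferase gene *Ep300* fell (-0.78 ± 0.15, limma adjusted p = 0.00348), and *Crebbp* was at 0.98 and did not pass (limma adjusted p = 0.142). The call of *Ep300* was lost at -0.50 with scaling to the median. *Crebbp* was at 0.37 on the arrays of slide 1 and at 1.58 on those of slide 2. It passed within slide 2 and without untreated replicate 3.

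Rbbp4 and Rbbp7 also belong to the NuRD, Sin3, CAF-1, NURF and Hat1 complexes. Of 22 other subunits of these, 4 fell, 5 rose and 13 did not pass, with a median of -0.07, which is near the background of 26.8% lower and 19.4% higher among the named genes. *Mbd2* (2.69) and *Chd3* (2.07), both of NuRD, rose most, and *Sap30* of Sin3 (-1.23) and *Chaf1b* of CAF-1 (-0.90) fell most.

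Genes of DNA replication and S phase, which are expressed in dividing cells like *Ezh2*, were given for comparison. Of 22 genes 11 fell and 0 rose, with a median of -0.69, where 26.8% of the named genes fell and 19.4% rose. *Mcm5* (-1.60) and *Mcm10* (-1.43), parts of the replication machinery, fell most, and *Ccne2* was not well above background on any array. After quantile normalization 9 fell, and the share of the named genes was not counted there. The change of *Ezh2*, 0.06 ± 0.18, was close to the highest of these 22, which was 0.00, and the difference was not tested.

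**Figure D4:**
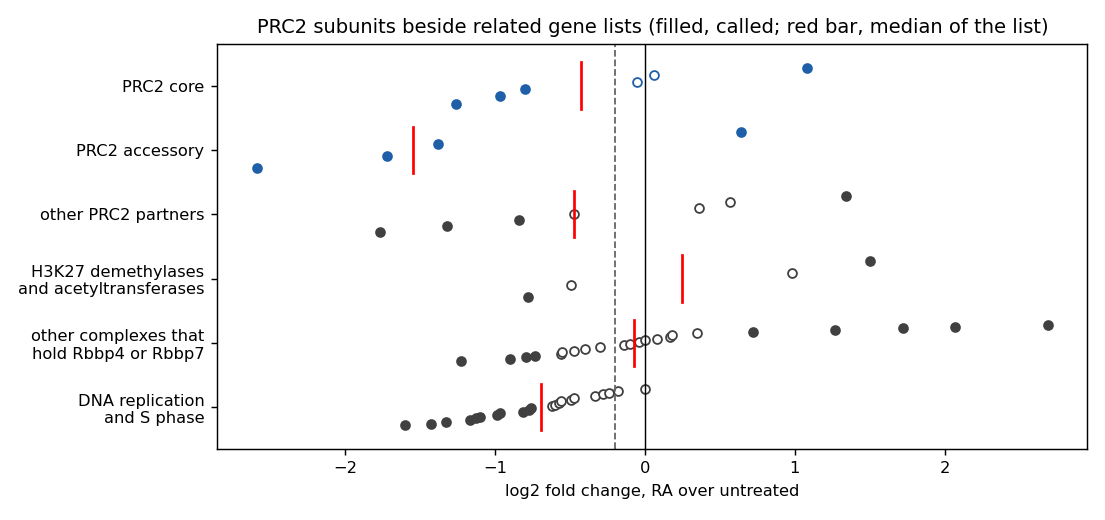
Log2 fold change of RA-treated over untreated cells (horizontal axis) for the core and accessory PRC2 subunits (blue) and 4 related gene lists (grey), with a point per gene, filled where the gene fell or rose by the test, and a red bar for the median of the list; the dashed line is the median of the named genes, -0.20. The accessory subunits have the lowest median, -1.55, and the replication genes lie at or below 0.

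The 250 bases before the start of each gene were read from the RefSeq promoters (GRCm38.p6), where all 10 genes matched. An E2F motif (TTTCCCGC, TTTCGCGC, TTTGCCGC or TTTGGCGC, on either strand), bound by regulators of S phase genes, was present at *Suz12* and *Phf19* and at none of the other 8 genes; 1.86% of 32851 such windows hold one. Both genes fell, as did 4 genes without the motif (6 of the 10 in all). Their windows are shown with the motif in capitals, on the strand of the gene:
Suz12 (chr11:79992856-79993105, plus strand): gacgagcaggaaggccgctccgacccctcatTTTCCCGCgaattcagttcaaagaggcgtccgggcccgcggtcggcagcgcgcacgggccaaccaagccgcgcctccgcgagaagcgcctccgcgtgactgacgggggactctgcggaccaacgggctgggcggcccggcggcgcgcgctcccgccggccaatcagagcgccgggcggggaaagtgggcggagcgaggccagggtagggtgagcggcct
Phf19 (chr2:34913977-34914226, minus strand): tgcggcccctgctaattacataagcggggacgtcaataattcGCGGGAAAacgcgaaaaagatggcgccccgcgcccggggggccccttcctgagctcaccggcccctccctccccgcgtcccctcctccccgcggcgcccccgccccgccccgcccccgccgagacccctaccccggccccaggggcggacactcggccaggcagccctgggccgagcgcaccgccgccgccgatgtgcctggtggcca
The motif starts 219 bases before the start of *Suz12* and 208 before that of *Phf19*, where it is on the opposite strand. These windows hold 37 and 31 CpG, but windows without the motif, such as those of *Rbbp7* (34) and *Rbbp4* (30), are as rich, against a median of 6 over all windows, so the share of 1.86% comes from windows that are mostly poorer in CpG. Of 4 motifs searched, only E2F was found: an ETS motif (CCGGAAG, in 6.91% of windows), the NRF1 motif (in 0.782%) and a retinoic acid response element of the DR5 type (direct repeats of AGGTCA or AGTTCA with 5 bases between them, in 0.0335%) were in none of the 10 genes' windows. These matches describe letters and no binding was measured here.

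**Figure D5:**
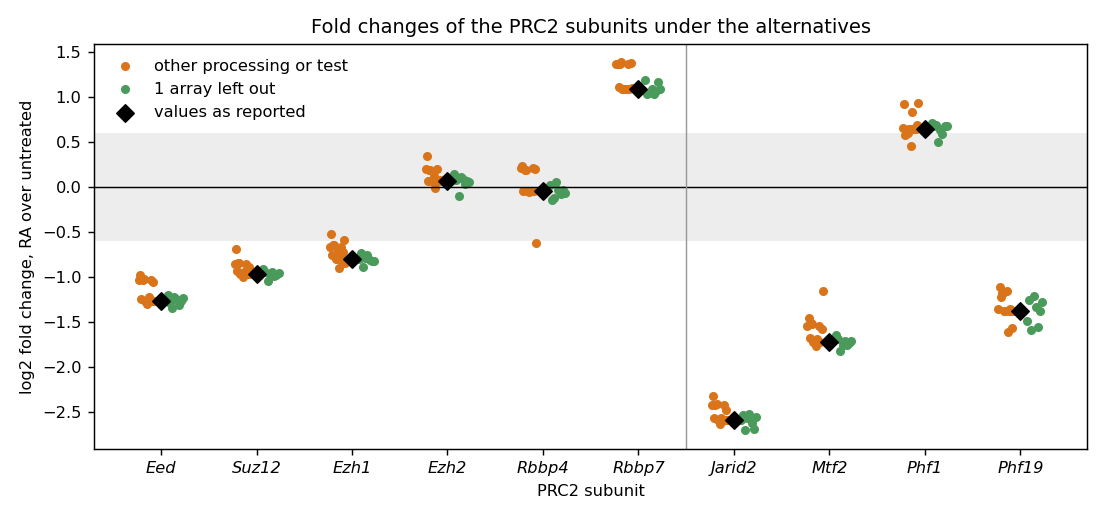
Log2 fold change of RA-treated over untreated cells (vertical axis) for the 10 PRC2 subunits (horizontal axis) as reported (diamonds), under other processing or tests (orange) and with 1 array left out (green); the grey band is a change below 1.5-fold. Jarid2 stays between -2.70 and -2.32, and Phf1 lies between 0.45 and 0.93, across the edge of the band.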

How the data were processed

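For each array the authors deposited the output of Agilent Feature Extraction (10.7.3.1), with a background-corrected, detrended intensity per spot that is not normalized between arrays, and flags for detection, saturation and outliers. A second table deposited by the authors holds log2 values of these spots, with the same distribution on all arrays (median 6.76 on each); the normalization behind it is not given in the sources used here.

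In R (4.3.3), log2 intensities were taken, the 75th percentile over the 59305 spots that are not controls was subtracted, 3671 control spots and 124 to 145 outlier spots per array were left out, and spots of a probe were averaged. limma (3.58.1) was fitted over all 55681 probes with Benjamini-Hochberg adjustment, and genes were called at 0.05 and 1.5-fold, the thresholds of the study. Between 56.7% and 62.7% of spots per array were well above background, and the number of arrays limits the precision.

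The subunits, lists and tests were chosen with earlier results of these data known. Named genes are the 10 subunits, the genes of the PRC2 partner and the demethylase and acetyltransferase lists, the called genes of the 2 longer lists with the largest change (up to 2 in each direction) and the 3 nearest genes of *Ezh1* and *Ezh2*; the marker lists are given by counts, and of them *Pou5f1*, *Nanog*, *Dppa5a*, *Nes* and *Tubb3* were named after their values were seen, as were *Ccne2*, *Suds3*, *Tk1* and *Mcm2* of the longer lists. Names are those of the array, updated through the RefSeq table. The labels call the 4 cultures of a condition biological replicates and number them. Over 27508 probes, deviations of same-numbered arrays correlated at 0.187, 0.189, 0.104 and 0.152. The arrays lie on 2 slides with 2 of each condition, and same-numbered arrays share a slide for replicates 1 and 2 only. The highest for other pairs were 0.142 (untreated 1, RA-treated 4) and 0.129 (untreated 4, RA-treated 3), each within a slide. A pairing by number is thus possible but is stated nowhere in the labels. The values given are those of the unpaired fit, with the replicate block as an alternative. Alternatives were the scaling, background correction, the authors' values, dim probes left out, slide and replicate blocks, each slide alone, a test against 1.5-fold, probe means and leaving out each array; quantile normalization without untreated replicate 3, and the probe means and the dim probe of *Ezh1* without untreated replicate 1, were added after seeing the data.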

Additional observations from a re-analysis of the deposited data

Results flagged for a closer look

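In 8 of the 142 groups of 4 arrays examined, 1 array lay apart from the other 3 by more than Dixon's 95% limit, where chance gives about 1 in 20 groups, or 7.1. Of the PRC2 subunits, the dim coding probe of *Ezh1* (A_55_P2017086) was at -6.03 in untreated replicate 1, not well above background, against -3.50 to -3.19 in the others. The brightest *Phf1* probe (A_51_P220260) was at -1.49 in untreated replicate 4, against -0.96 to -0.86. Among the related genes, *Ezhip* (AU022751) was at 0.59 in RA-treated replicate 4, against 1.43 to 1.55. *Crebbp* was at 4.26 in the same array, against 5.15 to 5.33. *Suds3*, of the Sin3 complex, was at 2.03 in RA-treated replicate 2, against 1.79 to 1.83. *Chaf1b* was at 4.79 in untreated replicate 3, against 5.56 to 5.70, and the S phase gene *Tk1* was at 1.95 in that array, against 3.05 to 3.27. *Mcm2* was at 3.52 in RA-treated replicate 1, against 3.71 to 3.73. The causes were not tested.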

How the results depend on the processing

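Under 22 alternatives no call of a PRC2 subunit changed direction, and *Jarid2*, *Mtf2* and *Eed* kept their calls under all 22. With the replicate number as a block 6 subunits fell and 2 rose, and no call of a subunit changed; over all probes 12161 fell and 7223 rose. In an exact sign-flip test of the paired arrays the ratios of 4 pairs gave p = 0.125, and *Mtf2* against *Phf19* 0.375. The former is the smallest that 4 pairs of arrays allow, so this test could give no call, and the shifts themselves were unchanged.

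The test against 1.5-fold left 3 subunits lower (1 core) and 1 higher (0 accessory). Within each slide (2 arrays against 2, with little power) 1 core subunit was lower, and 0 core, 0 accessory and so 0 subunits in all were higher. With normexp background correction 1 subunit was higher and 0 accessory. Leaving out 1 array gave 1 to 2 subunits higher and 0 to 1 accessory (0 without untreated replicate 4 or RA-treated replicate 1 or 2). The core median was -0.24 after quantile normalization (with the replicate block too), -0.15 with median scaling, -0.23 with normexp and quantile normalization, -0.23 in the authors' values and -0.60 with probes averaged; the accessory median was -1.28 with median scaling and -1.27 with probes averaged. With probes averaged, *Ezh1* against *Ezh2* was -0.65 and *Mtf2* against *Phf19* turned to 0.23 (neither past the threshold); without untreated replicate 1 the former was -0.98.

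Of the other PRC2 partners, 1 was lower within slide 2 and in the test against 1.5-fold, and 2 were higher after quantile normalization (with the block or without untreated replicate 3 too), with median scaling, with normexp, with normexp and quantile normalization, in the authors' values and with probes averaged (1 to 2 leaving out an array). Of the demethylases and acetyltransferases, 0 were lower with median scaling, within either slide and against 1.5-fold; 0 were higher within slide 1, 2 within slide 2 and after quantile normalization without untreated replicate 3, and 1 to 2 leaving out an array. Of the other complexes with Rbbp4 or Rbbp7, 1 was lower with median scaling, 0 and 1 within slides 1 and 2 and 1 against 1.5-fold, and 3 were higher within each slide, against 1.5-fold and with probes averaged. Of the S phase genes 7 were lower with median scaling, 5 and 4 within slides 1 and 2 and 5 against 1.5-fold. Of all probes, 8025 were lower with median scaling, 6603 with normexp and quantile normalization, 6583 in the authors' values, 6348 and 5453 within slides 1 and 2 and 5728 against 1.5-fold; 4206 and 3964 were higher within the slides and 4171 against 1.5-fold. The causes were not tested.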
